A study of Saccharomyces cerevisiae with 91 samples.

Results

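The temperature-sensitive yeast allele sth1-2 was compared with the wild-type strain BY4741 at 37 °C. Both had been grown to mid-log phase in rich medium (YPD) at 30 °C and then held at 37 °C for 90 min. All samples labelled sth1-2 or BY4741 at 37 °C were taken, which gave 5 of the 91 samples of the series, 2 of sth1-2 and 3 of BY4741. The other strains treated in the same way carried rsc8-21, scc2-4 or an rgr1 allele, with 2 samples each. Titles call the last of these rgr1-100, whereas its strain field reads rgr1-97. The labels do not say in which strain background the alleles lie, so a difference of allele cannot be told apart from one of background.

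Sth1 is the ATPase of RSC, an essential chromatin remodeller of Saccharomyces cerevisiae that slides and evicts nucleosomes. RSC keeps nucleosome-depleted regions (NDRs) open at many promoters, and Rsc8 is a core subunit of the same complex. Scc2 loads cohesin, and Rgr1 (Med14) is a scaffold subunit of Mediator, so scc2-4 and rgr1 are alleles of other machines held at the same temperature. Micro-C ligates neighbouring nucleosomes after crosslinking and digestion with micrococcal nuclease (MNase), and a read pair from a ligation product reports a contact. Unligated DNA yields read pairs too.

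The deposited tables hold 1 column of sth1-2 in every table, whereas BY4741 at 37 °C has 1 column of NDR counts, 1 of gene compaction and 2 of pair distances. No source used here says whether a column pools the labelled samples of its group. With 1 column in a group there is no test, and the differences below compare columns. Intervals cover counting error only. As a measure of how far wild-type libraries differ among themselves, values were also set beside 14 BY4741 columns at 30 °C, a group at another temperature. An SD over these columns is that of single columns, and a ratio of 2 columns would vary more. The 14 columns hold 105690 to 955232 NDR-spanning reads, fewer than either 37 °C column compared, so their spread includes counting error. Their counts had 0.5 added before scaling, which sets the lowest value at some NDRs. The NDR table holds 1164131 NDR-spanning reads of sth1-2 and 2299974 of BY4741 at 37 °C, with a median of 77 and 181 reads per NDR. The other 37 °C columns hold 947403 to 1438074 reads. A library without ligation gave 6551 such reads and one without crosslinking 210503. Because sth1-2 carries an altered STH1 gene and not a deletion, the signal over STH1 does not check the label. Per 1000000 gene reads it was 582 in sth1-2 and 527 in BY4741.

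Few NDRs differed by a large fold. NDR-spanning reads were scaled as counts per 1000000 (CPM) after TMM adjustment of library size, and a call needed at least 100 reads in both columns together. Of 6689 NDRs that met this, 18 were more than 2-fold higher in sth1-2 (0.269%) and 16 more than 2-fold lower (0.239%). Past 1.5-fold, 239 were higher (3.57%) and 274 lower (4.1%). Against the same BY4741 column, rsc8-21 gave 79 higher (1.18%) and 109 lower (1.63%), scc2-4 gave 116 (1.73%) and 199 (2.98%), and rgr1 gave 43 (0.643%) and 63 (0.942%). These comparisons share their control. The split of the 34 calls depended on the scaling, since total NDR reads in place of TMM gave 7 higher and 85 lower, and moved the median of all NDRs from 0.01 to -0.22 on the log2 scale. With the pairs listed in the distance table as library size the split was 6681 to 0 and the median 2.17. That table lists 1512477 pairs of sth1-2 against 13487647 and 2191166 of BY4741. The totals given with the NDR counts were 63678633 for sth1-2 and 132461902 for BY4741, with 1.83% and 1.74% as NDR reads. Listed pairs are thus on another basis than the NDR counts. A single NDR was measured loosely, because the counting interval of its log2 ratio had a median width of 0.80 and the 30 °C wild-type columns had a median SD of 0.35.

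The 18 higher NDRs lay mainly at chromosome ends, in the subtelomeric Y′ elements. Of the 18, 14 were within 15 kb of an end and 9 were inside YRF1 genes, which encode the Y′-element helicases. Inside YRF1-5, at position 1074759 of chromosome XII in build sacCer3 and 3.14 kb from the right end, sth1-2 had 504 CPM and BY4741 145. The other 37 °C columns had 210.0 (rsc8-21), 193 (scc2-4) and 144 (rgr1). The sth1-2 column was therefore above every other 37 °C column, by 1.80 over BY4741 on the log2 scale (95% counting interval 1.59 to 2.01). It was also above the 30 °C columns there, which ran from 117 to 481 CPM.

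The other YRF1 NDRs among the highest also had more CPM in sth1-2 than in every other 37 °C column. That was fixed by the choice, since the 10 highest were taken from NDRs where sth1-2 lay outside those columns. In YRF1-6, at position 3511 of chromosome XIV, the values were 710.0 CPM in sth1-2, 249 in BY4741, 381 in rsc8-21, 289 in scc2-4 and 235 in rgr1. In YRF1-1 at 1528571 of chromosome IV, sth1-2 had 655 CPM and BY4741 247. The other NDRs near ends among the 10 highest had log2 ratios of 1.37 in YRF1-5 (chromosome XII, 1076213), 1.37 in YRF1-3 (VII, 1087454), 1.33 in YLL067C (XII, 1873), 1.30 in YRF1-7 (XVI, 3420), 1.22 in YJL225C (X, 3886) and 1.18 in YRF1-2 (V, 573389). The remaining NDR of the 10 lay in PMA1, far from an end (1.23). The Y′ elements are near-identical copies, so reads may have been shared or split among them and these NDRs are not independent.

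Wild-type libraries varied widely over the same regions. Over 16 NDRs inside YRF1 genes the median was 676 CPM in sth1-2 and 259 in BY4741, and the medians of the 14 columns at 30 °C ran from 174 to 770. The sth1-2 value thus lay inside the wild-type range at 30 °C. Of the 14 higher NDRs near ends, 2 were above that range. Over all 266 NDRs within 15 kb of an end the median log2 ratio was 0.31 in sth1-2, 0.07 in rsc8-21, 0.02 in scc2-4 and 0.07 in rgr1, while the same median over the 30 °C columns had an SD of 0.37. In sth1-2, 43 of the 266 were higher past 1.5-fold and 1 was lower, against 3.57% and 4.1% of all NDRs. The ratio was higher close to the ends. Its median was 0.51 in the outermost 2 kb, 0.42 from 2 to 5 kb, 0.37 from 5 to 10 kb, 0.06 from 10 to 15 kb and 0.03 from 15 to 30 kb. Of 32 chromosome ends, 25 had a median above 0 and 7 below. The ends below 0 were both ends of III, the left ends of VII and XV and the right ends of VI, IX and XIII. In the dimer fraction of the series' MNase titration, NDR reads at the 1X dose were divided by those at the 0.25X dose. The log2 ratio, centred on the median of all NDRs, had a median of 0.65 over these 266 NDRs. The part of digestion in the sth1-2 difference was not tested.

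**Figure D1:**
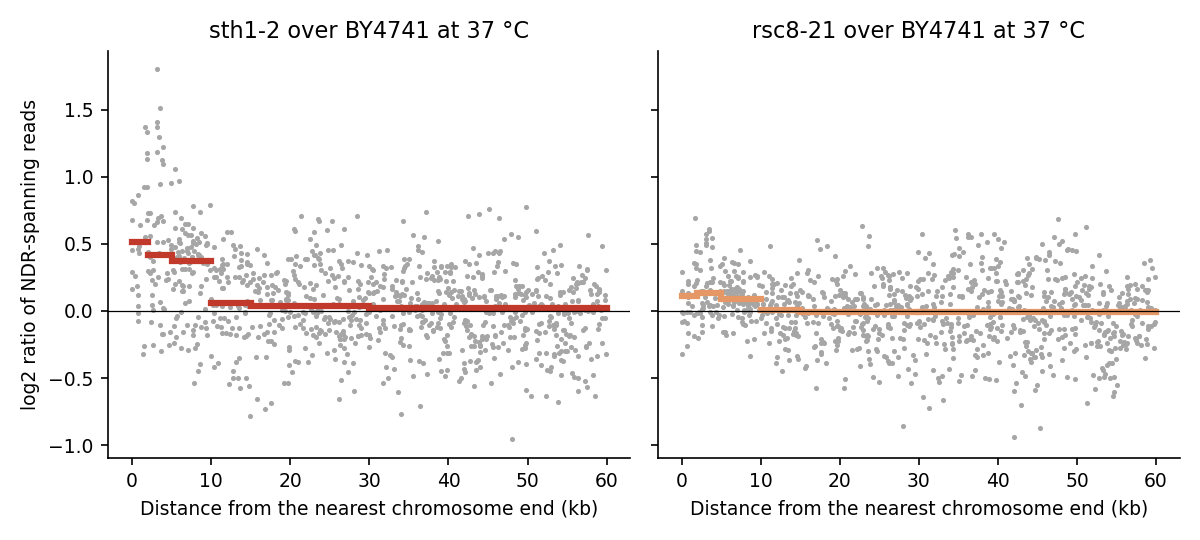
Each grey point is an NDR, placed by its distance from the nearest chromosome end in kb, with the log2 ratio of its NDR-spanning reads to BY4741 at 37 °C on the vertical axis. Coloured bars give the median in each distance range. In sth1-2 the bars stand at 0.51, 0.42 and 0.37 within 10 kb and at 0.06 or less beyond, and in rsc8-21 at 0.14 or less throughout.

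Away from the ends, 4 NDRs were more than 2-fold higher. At 480332 of chromosome VII, inside PMA1, the plasma membrane proton pump gene, sth1-2 had 89.9 CPM and BY4741 38.3. The other columns had 49.0 (rsc8-21), 27.7 (scc2-4) and 34.0 (rgr1), and the 30 °C columns reached 63.8, so sth1-2 stood above all of them. The log2 ratio was 1.23 (0.78 to 1.68). The NDR at 74856 of chromosome X lies between the downstream ends of RPS14B and RPS22A, genes of small-subunit ribosomal proteins. It had 70.3 CPM in sth1-2 and 31.6 in BY4741, with a 30 °C maximum of 30.9. The NDR at 652167 of chromosome XIII lies 257 bp from the downstream end of RPL36A, a large-subunit gene. Its values were 49.6 CPM against 24.5, with a 30 °C maximum of 32.2. Both of these ribosomal protein neighbours were thus above every wild-type column. At PFK1, which encodes a phosphofructokinase subunit, 88.9 CPM against 43.2 lay inside the 30 °C range, whose upper end was 89.0.

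Of the 16 lower NDRs, 0 lay within 15 kb of a chromosome end, against 266 of all 6689. A start codon lay within reach of the assignment rule (up to 500 bp downstream or 50 bp upstream) for 11. The same held for 3569 of all 6689. All 16 were below every other 37 °C column, against 25.0% of all NDRs. Below the 30 °C range were 10 of the 16, and 558 of all 6689. The low sth1-2 value that picked the 16 enters both counts, so these give no separate support. The NDR at 123651 of chromosome X lies 185 bp from the downstream end of FAR1, a gene of pheromone-induced cell cycle arrest. It had 14.5 CPM in sth1-2 and 44.6 in BY4741, and no start codon under the rule. The rsc8-21, scc2-4 and rgr1 columns had 32.0, 23.5 and 44.0. The log2 ratio was -1.62 (-2.55 to -0.81), from 14 and 100 reads. The neighbouring NDR at 123251, by CIS3, a cell wall mannoprotein gene, had 15.5 CPM against 41.0, and neighbours this close may share reads.

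Several other lower NDRs also came in neighbouring groups. Around TPO4, a polyamine transporter gene on chromosome XV, and the tRNA-modification gene MOD5, NDRs at 836395, 836855 and 837201 had log2 ratios of -1.26, -1.41 and -1.30. On chromosome XII the NDR at TMA10 (783486) had 19.6 CPM in sth1-2 and 48.6 in BY4741, and the one at NMA1, an enzyme of NAD synthesis (784472), had 20.7 and 50.4. The TMA10 value was below the lowest 30 °C column, at 46.8. The remaining NDRs among the 10 lowest were those of URA7 and MRPL16 (-1.23), ARO5 (-1.13) and MCH4 (-1.13). The NDR 97 bp from the downstream end of HSP12, a stress-induced membrane protein gene, had 59.9 CPM against 124. It had 86.0 in rsc8-21, and its 30 °C range was 96.3 to 164. In rsc8-21 past 2-fold, against the same BY4741 column, 0 NDRs were higher (0.0%) and 5 lower (0.0747%).

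Gene lists differed by less than single NDRs. Their medians are best read against the median of all NDRs, because a change of scaling shifts all lists alike. The 98 NDRs of ribosomal protein genes had a median of 53.7 CPM in sth1-2 and 44.8 in BY4741, and the medians of the 30 °C columns ran from 33.8 to 44.4. The median log2 ratio was 0.23, or 0.22 above all NDRs, and it was -0.00 with total NDR reads as library size. Its SD over the 30 °C columns was 0.09. In the same order the ratio was 0.08 in rsc8-21, -0.05 in scc2-4 and 0.04 in rgr1. Past 1.5-fold, 11 of the 98 were higher and 3 lower, against 3.57% and 4.1% of all NDRs, and 34 were above every other 37 °C column, against 25.6% of all NDRs. At RPL7A sth1-2 had 66.1 CPM and BY4741 37.0, above the 30 °C maximum of 48.7. RPS24A had 59.9 and 33.9, and the NDR shared by RPS22A and RPL39 had 58.9 and 33.4. RPL38 went the other way, with 25.8 and 45.9. The MNase titration, centred in the same way, gave a median log2 ratio of 0.25 over these NDRs, and its part was not tested.

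Of 15 NDRs of stress-induced genes, targets of the transcription factors Msn2 and Msn4, 3 were lower in sth1-2 past 1.5-fold and 0 higher, against 4.1% and 3.57% of all NDRs. The median log2 ratio was -0.27 in sth1-2 and -0.31 in rsc8-21, and it was -0.09 in both scc2-4 and rgr1. The SD over the 30 °C columns was 0.09. In sth1-2, 4 of the 15 were below the 30 °C range, as were 558 of all 6689 NDRs. DDR2, a DNA damage and heat shock response gene, had 41.3 CPM in sth1-2, 76.7 in BY4741, 46.0 in rsc8-21, 49.8 in scc2-4 and 69.9 in rgr1. CTT1, the cytosolic catalase gene, had 40.3, 72.7, 51.0, 76.8 and 71.9 in the same order. At CTT1 sth1-2 was below the lowest 30 °C column (55.3), and at DDR2 it was inside the range. The third was the NDR of GLK1, a glucokinase gene, which PDI1 and YCL042W share, with 62.0 CPM against 96.3. Against the mean of the other temperature-sensitive alleles the list stood at -0.09 relative to all NDRs, and with start codons up to 300 bp at -0.17.

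By their medians, the genes of RSC itself and of most other lists stood close to all NDRs. The 16 NDRs of RSC subunit genes had a median of -0.08, with 0 higher and 3 lower past 1.5-fold, against 3.57% and 4.1% of all NDRs. The lower ones were 2 neighbouring NDRs between ARP7, an actin-related subunit, and HTS1 (42.4 CPM against 71.8 and 44.4 against 72.2), and that of RSC6 (125 against 205). Both ARP7 NDRs were below the 3 other alleles and below every 30 °C column, but BY4741 and the other alleles at 37 °C were below the 30 °C columns there as well. Of the 16 NDRs in sth1-2, 5 were below the 30 °C range and 2 above it, against 558 and 456 of all 6689. In BY4741 at 37 °C, 3 of the 16 were below that range and 0 above. Below every other 37 °C column were 7, and 4 were above, against 25.0% and 25.6% of all NDRs. The NDR that STH1 shares with RRT14 had 50.6 CPM in sth1-2 and 65.5 in BY4741 (log2 ratio -0.37, interval -0.87 to 0.10). For RSC2 and RSC1, alternative bromodomain subunits, the values were 74.4 against 57.1 and 70.3 against 55.3, inside the 30 °C range of RSC2 and just above the 30 °C maximum of 69.9 for RSC1. Cell wall genes had a median of -0.20, histone genes -0.19, Hsf1 targets -0.18 and G2/M genes -0.14, with 30 °C SDs of 0.16, 0.17, 0.15 and 0.15. Their scc2-4 medians were -0.35, -0.33, -0.20 and -0.27, all lower than in sth1-2. Among cell wall genes YPS1, a surface protease, had 46.5 CPM against 91.8, and GAS1, a glucan-remodelling enzyme, had 45.5 against 74.4. NDRs within 300 bp of tRNA genes, a known class of RSC targets, had a median of -0.00 over 127. NDRs at the authors' wild-type boundaries had a median of -0.00 and those away from them 0.01. HTB1, a histone H2B gene, had 57.9 CPM against 47.7, and CHA1, HTA1, GAL1 and GAL10 had no NDR under the assignment rule.

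**Figure D2:**
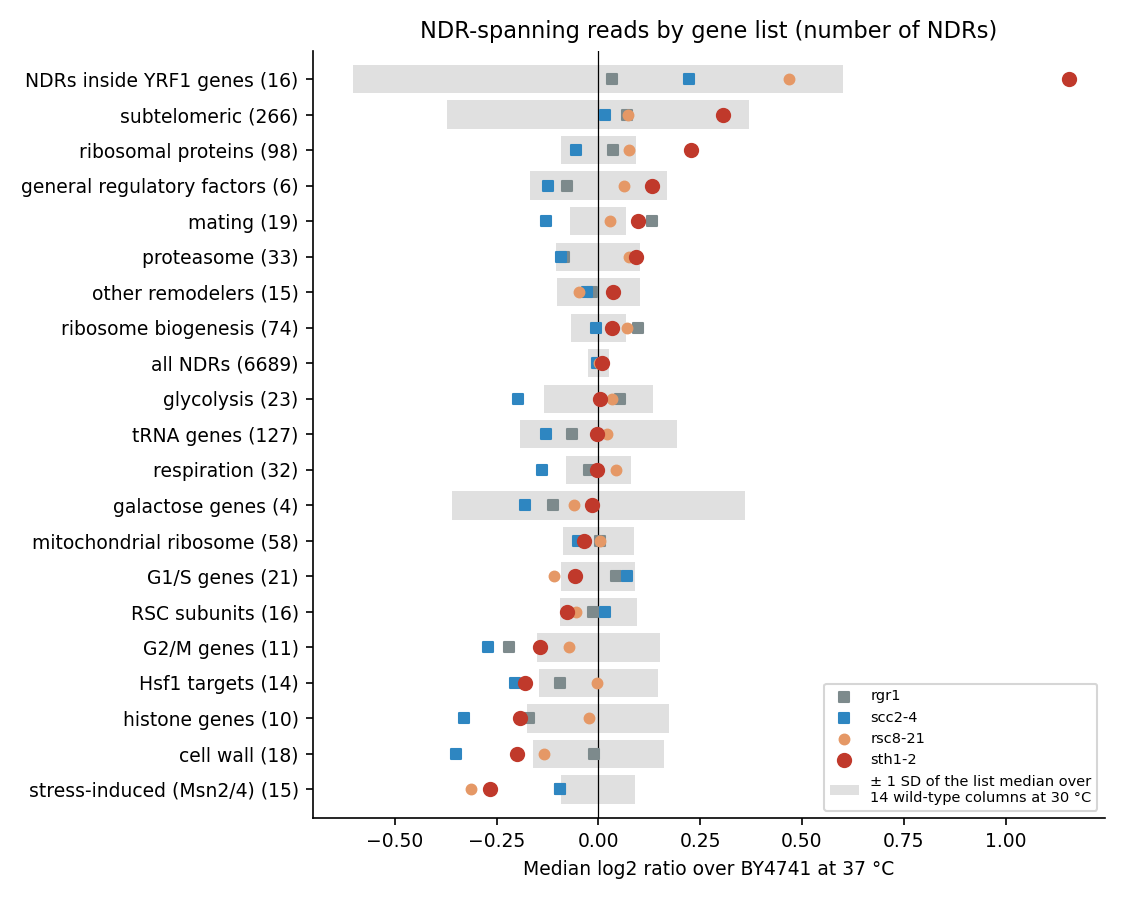
Points give the median log2 ratio of NDR-spanning reads to BY4741 at 37 °C in each gene list for the 4 temperature-sensitive alleles, and grey bars span 1 SD either side of 0 for the same median over 14 wild-type columns at 30 °C. The sth1-2 medians lie outside the bars above 0 for NDRs inside YRF1 genes (1.16), ribosomal protein (0.23) and mating genes (0.10). They lie outside below 0 for Hsf1 target (-0.18), histone (-0.19), cell wall (-0.20) and stress-induced genes (-0.27), and inside for subtelomeric NDRs (0.31). Bars describe single columns, whereas a point is a ratio between columns, which would vary more. A point outside its bar therefore need not exceed wild-type differences.

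Reads over the ribosomal DNA repeats made up 32.1% of NDR-spanning reads in sth1-2 and 25.0% in BY4741. The rsc8-21 column had 34.2%, scc2-4 25.8% and rgr1 20.0%. Both RSC alleles were thus above the other 37 °C columns. The 30 °C wild-type columns alone ran from 14.6% to 33.7%, a range that held sth1-2 but not rsc8-21. The share comes from 20 NDRs between 451786 and 489469 of chromosome XII, where repeats collapse onto few copies in the reference.

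Contacts along the fibre differed little in reach. The reach ratio is taken over same-direction pairs (IN-OUT and OUT-IN), as log2 of the number 500 to 1000 bp apart divided by the number 100 to 500 bp apart. Its value was -2.65 in sth1-2, -2.75 and -2.77 in the BY4741 columns, -2.33 in rsc8-21, -2.89 in scc2-4 and -2.68 in rgr1. The sth1-2 column was above both BY4741 columns by 0.10 and 0.12, which is smaller than the SD of 0.27 over 16 BY4741 columns at 30 °C (mean -2.23). Between 1 and 10 kb sth1-2 held 12.2% of its same-direction pairs, against 16.0% and 13.3% in BY4741. Taken over 1000 to 2000 bp, the ratio was -3.86 in sth1-2 and -3.57 and -3.68 in BY4741, so the sign of the difference depended on the distance. With 200 to 500 bp as the near range the difference from the mean of BY4741 was 0.0013. Over all 4 orientations the ratios were -5.39, -7.35 and -5.91. Facing (IN-IN) pairs, which unligated DNA also yields, made up 80.8% of listed pairs in sth1-2 and 94.7% and 85.4% in BY4741. The sth1-2 column carries the number 26 in its name, as does the second BY4741 column, while the first carries 24. No source used here says what these numbers mean, and the 2 BY4741 columns differ by more in several measures than sth1-2 differs from the second.

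The nucleosome ladder had its first IN-OUT peak at 146 bp in sth1-2 and at 160 and 161 bp in BY4741. It lay at 152 bp in rsc8-21, 161 bp in scc2-4 and 152 bp in rgr1. The sth1-2 peak was 14.5 bp below the mean of BY4741, or 9 bp below with wider smoothing, and inside the 30 °C wild-type range of 143 to 166 bp (SD 6.98). Over OUT-IN pairs the first peak was at 146 bp in sth1-2 and at 157 and 161 bp in BY4741. With wider smoothing it was at 156 bp in sth1-2 and at 156 and 159 bp in BY4741. The shift over OUT-IN pairs thus depended on the smoothing. The second peak lay at 313 bp in sth1-2 and at 316 and 313 bp in BY4741. The number of IN-OUT pairs 140 to 180 bp apart divided by that 70 to 110 bp apart was 0.69 in sth1-2, 0.85 and 0.75 in BY4741 and 0.94 in rsc8-21. All 37 °C columns were below the 30 °C wild-type range of 1.28 to 2.40 in this ratio, and sth1-2 was below the other 37 °C columns.

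**Figure D3:**
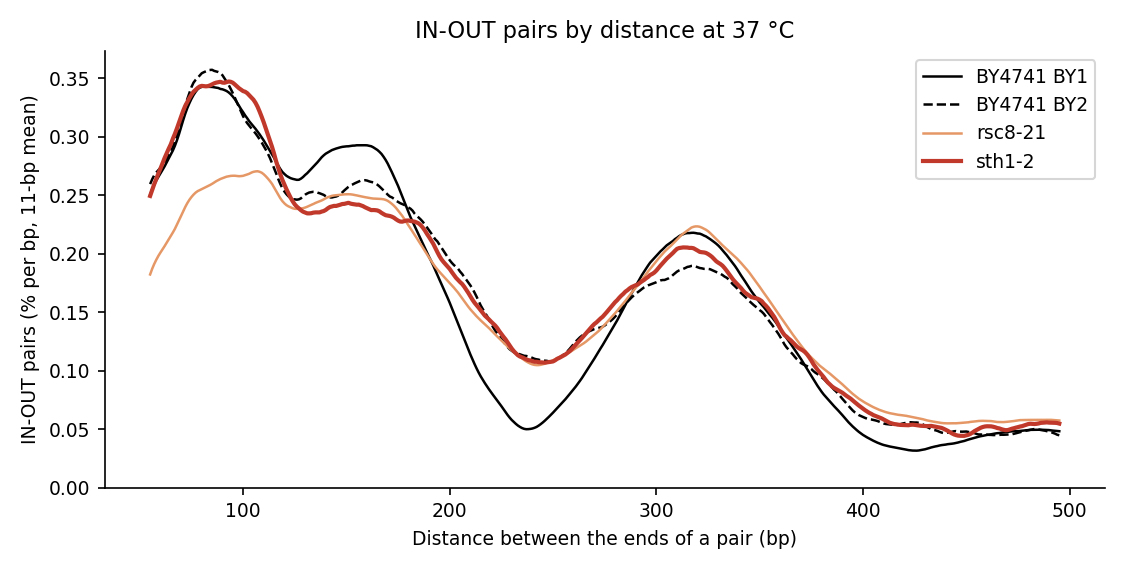
Lines give the percent of IN-OUT pairs per bp of distance for sth1-2, rsc8-21 and the 2 BY4741 columns at 37 °C. They were smoothed with an 11-bp running mean and then again with the same mean. The sth1-2 line runs close to the second BY4741 column (dashed), and its first nucleosomal maximum is broad. Under the first smoothing alone that maximum lay at 146 bp in sth1-2 and at 160 and 161 bp in BY4741.

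The deposited gene compaction score showed the broadest difference of sth1-2. The score is the authors' 2D-normalised value on the log2 scale, in which more long than short fragments within a gene give a higher score. The sheets named long and short in the 37 °C table appear exchanged. Across 6644 genes, values under the name long had a correlation of 0.978 with short signal at 30 °C and of 0.882 with long signal there. Those under the name short had 0.987 with long signal and 0.915 with short signal. The sheets were therefore read the other way round, and the score itself was used as deposited. Scored genes have a listed length over 750 bp. For some this differs from the annotated span, being longer for RPL9B (937 bp) and shorter for HSC82 (890 bp). Among 4770 scored genes, 1118 were higher in sth1-2 than in BY4741 by at least 0.5 (23.4%) and 184 lower (3.86%). Against the same BY4741 column, rsc8-21 had 416 higher (8.72%) and 259 lower (5.43%), scc2-4 269 (5.64%) and 149 (3.12%), and rgr1 107 (2.24%) and 417 (8.74%). The median gene was 0.21 higher in sth1-2, and with differences centred on it 616 genes were higher and 435 lower. Long fragments were 10.3% of the gene signal in sth1-2, 6.44% in BY4741, 7.35% in rsc8-21, 8.16% in scc2-4 and 3.51% in rgr1, so the libraries differ in fragment length over all genes. The part of this in the score differences was not tested, and lists are given below relative to the median gene.

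Ribosomal protein genes had higher scores in sth1-2 than in BY4741. Over 119 such genes the median score was 0.08 in sth1-2 and -0.91 in BY4741, and it was -0.38 in rsc8-21, -0.85 in scc2-4 and -0.999 in rgr1. The lowest and highest of the 119 were -1.49 and 1.49 in sth1-2 and -2.14 and 0.15 in BY4741, so the ranges overlapped. The score was higher in sth1-2 for 116 of 119, by at least 0.5 for 99 and lower by 0.5 for 0, against 23.4% and 3.86% of all genes. The median difference was 0.98, which is 0.77 above the median gene. Relative to the median gene 84 were higher by at least 0.5 and 0 lower, against 12.9% and 9.12% of all genes. The corresponding values above the median gene were 0.49 in rsc8-21, 0.05 in scc2-4 and 0.05 in rgr1. In 103 of the 119 sth1-2 was above every other 37 °C column, against 51.0% of all genes. Without the authors' normalisation, log2 long over short was 0.53 above the median gene. Summed over the list, long reads were 4.97% of the gene reads in sth1-2 (11120 long and 212494 short) and 2.02% in BY4741 (10478 and 507640), with 2.94% in rsc8-21, 2.63% in scc2-4 and 1.12% in rgr1.

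The difference had the same sign in both ribosomal subunits and in each range of listed gene length. The median difference was 0.99 over 70 large-subunit genes and 0.91 over 49 small-subunit genes. For genes listed at over 750 and up to 1000 bp it was 0.99 over 47 ribosomal protein genes and 0.30 over 778 others. From 1000 to 1500 bp it was 0.98 and 0.24, and above 1500 bp, where 5 ribosomal protein genes lie, 0.69 and 0.17. RPL9B had -1.50 in BY4741 and 0.68 in sth1-2, with -0.47 in rsc8-21, -0.43 in scc2-4 and -1.23 in rgr1. RPL4A had -0.36 in BY4741, 1.49 in sth1-2 and 0.64 in rsc8-21. RPS6B differed by 1.77 and RPL1B by 1.70. Long reads were few here too, with 109 in sth1-2 and 48 in BY4741 for RPL9B and 121 and 74 for RPL1B. The 3 genes below 0 were RPL26A (-0.23), RPL26B (-0.12) and RPL31A (-0.11), with 27 to 51 long reads in sth1-2. Many ribosomal protein genes are duplicated with near-identical coding sequence, so the reads of a pair such as RPL4A and RPL4B may be shared.

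**Figure D4:**
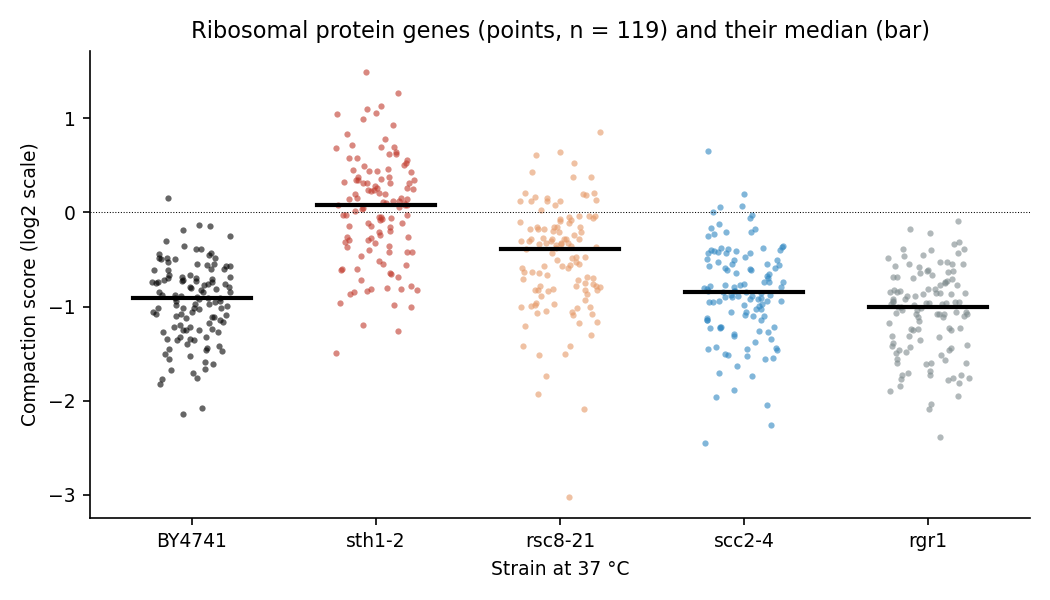
Each point is the deposited compaction score (log2 scale) of 1 of 119 ribosomal protein genes in 1 column of the 37 °C table, and black bars mark the medians. The median is 0.08 in sth1-2, -0.38 in rsc8-21 and between -0.999 and -0.85 in BY4741, scc2-4 and rgr1.

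The 10 largest differences among 2138 genes with long and short signal above the median were those of RPL4A (1.85), RPL4B (1.66), TEF1 (1.43), SLA2 (1.39), YRF1-2 (1.37), YRF1-5 (1.36), the Y′ entry TEL12R-YP1 (1.33), YRF1-3 (1.25), YGR079W (1.25) and TEF2 (1.23). TEF1 and TEF2 encode the same translation elongation factor, eEF1A, and had 394 and 378 long reads in sth1-2. YRF1-2, YRF1-5 and TEL12R-YP1 had 5695, 5548 and 5577. Reads may be shared within each of these sets, so their members are not independent. TEF1 had a score of 0.48 in sth1-2, -0.95 in BY4741 and -0.12 in rsc8-21. SLA2, an adaptor of actin and endocytosis, is listed with a length of 849 bp, shorter than its annotated span. For the Y′ genes the sign relative to the median gene depended on the normalisation. Over 8 YRF1 genes the score was 0.97 above the median gene and over 19 telomere element entries 0.72, but log2 long over short was -0.07 and -0.26 relative to the median gene.

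The lowest differences among the same 2138 genes included those of TIP41 (-0.91), JJJ1 (-0.74), MEP2 (-0.71), PMD1 (-0.69), HEF3 (-0.66), BCD1 (-0.65), AIM9 (-0.63), SPC110 (-0.62) and HRK1 (-0.62). TIP41, a regulator of TOR signalling, had -0.36 in sth1-2, 0.55 in BY4741, 0.09 in rsc8-21, 0.49 in scc2-4 and 0.24 in rgr1, so sth1-2 was the lowest of the 5 columns. MEP2, an ammonium permease, had -0.19, 0.51, 0.39, 0.53 and 0.27 in the same order. JJJ1, a co-chaperone of large-subunit maturation, had -0.95 in sth1-2 and -1.10 in rsc8-21, against -0.22 in BY4741.

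Other lists stood nearer to the median gene. Their counts are of differences that were not centred, to be read against 23.4% higher and 3.86% lower of all genes. Glycolytic genes were 0.30 above it, with 10 of 18 higher by at least 0.5 and 1 lower (PDC5 with -0.87 in BY4741 and 0.00 in sth1-2, HXK2 with -0.30 and 0.53), but by log2 long over short they stood at -0.02. Mitochondrial ribosomal protein genes were 0.15 above, with 17 of 47 higher and 3 lower, and proteasome genes 0.14 above, with 10 of 32 higher and 1 lower. Genes with a listed length of 750 to 1000 bp were as a class 0.12 above the median gene. The part of length in these lists was not tested. Ribosome biogenesis genes were 0.02 above, with 14 of 61 higher and 1 lower. NOP56, a snoRNP protein gene, had -0.56 in BY4741 and 0.46 in sth1-2. Stress-induced genes stood at 0.03 with 2 of 14 higher, and Hsf1 targets at 0.15 with 4 of 17 higher, among them the chaperone gene HSC82 (-0.33 in BY4741 and 0.69 in sth1-2). G1/S genes were 0.17 below the median gene, with 1 of 19 higher and 2 lower, and -0.20 by log2 long over short. CDC45, a replication factor gene, had 0.44 in BY4741 and -0.28 in sth1-2. Among 13 RSC subunit genes, 4 were higher and 0 lower, which is near the share of all genes: SFH1 (0.68), RSC3 (0.60), LDB7 (0.57) and ARP7 (0.53), while STH1 differed by 0.05. SNF6, a subunit gene of the related remodeller SWI/SNF, had -1.92 in BY4741 and -0.34 in sth1-2.

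**Figure D5:**
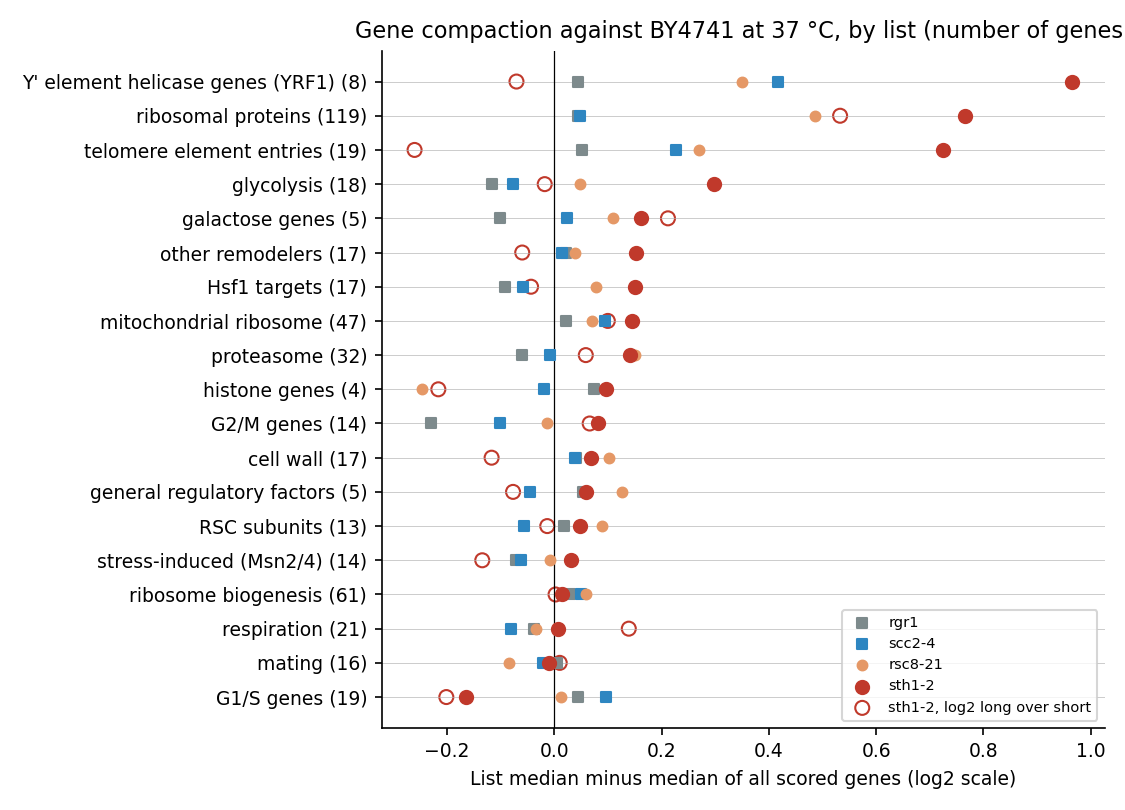
Filled points give, for each gene list, the median difference of the compaction score from BY4741 at 37 °C minus the median of all scored genes, for the 4 alleles, and open circles give the same for log2 long over short signal in sth1-2. Ribosomal protein genes stand at 0.77 by score and 0.53 by signal, and the YRF1 genes at 0.97 and -0.07.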

How the data were processed

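Samples were grouped by their labels, and columns were matched to groups by name; 131 columns were not used. Per the file headers, the NDR and distance tables of the authors hold raw counts, the latter split by 4 pair orientations. In the deposited gene table each column has a long signal, a short signal and the authors' score after 2D normalisation, whose log2 scale was read from the deposited values. Bowtie2, CASAVA 1.8.2 and sacCer3 are named in the submitters' processing notes; no source used here gives further steps.

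NDR counts were scaled with TMM (edgeR 4.0.16, R 4.3.3; DESeq2 1.42.0 size factors as an alternative). Ratios of 2 columns have exact binomial 95% intervals. With 1 column per group no count test was run. Scripts were tested on simulated data. Gene names are from RefSeq (R64, the assembly of sacCer3). Named are the RSC genes, the 10 highest and lowest NDRs and genes, up to 4 members a list and a few known loci; PMA1, PFK1, HSP12 and the NDRs near RPS14B and RPL36A were added after their values were seen. One of the 10 lowest genes is not reported here. The lists and named items were chosen with earlier results of these data known, and RPP1, an RNase P gene, was taken off the ribosomal list after its value was seen.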

Additional observations from a re-analysis of the deposited data

How the results depend on the processing

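With 1 or 2 columns per group there is no replicate test, and depth limits single NDRs. No paired analysis was possible because each 37 °C group has 1 column in the NDR table. For the same reason the DESeq2 test and leaving out NDR replicates were not run, and the sequence motif classes were not run because no genome sequence was used here. Some alternatives were chosen after seeing the data: leaving out chromosome ends, library size outside the ribosomal DNA, the BY4741 column numbered 26, centring of scores, and total reads for lists.

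The count of 34 NDRs past 2-fold became 92 with total NDR reads, 6681 with all listed pairs, 14 with at least 300 reads (13 higher and 1 lower), 513 past 1.5-fold, 121 against BY4741 at 30 °C (87 higher and 34 lower, 19 of the 34 shared) and 20 without NDRs within 15 kb of an end (4 higher and 16 lower). It stayed between 30 and 43 under the others, where reads outside the ribosomal DNA gave 15 higher and 28 lower and the mean of the other alleles shared 14 calls. By construction, a shift of 2.17 in all NDRs with listed pairs turned the lower NDRs positive, to 0.54 (near FAR1), 0.75 (TPO4), 0.76 (CIS3), 0.85 (TMA10), 0.86 (MOD5), 0.88 (NMA1), 0.90 (the other TPO4 NDR), 0.93 (URA7), 1.03 (ARO5 and MCH4) and 1.05 (COG8). The NDR in YLL067C at 1873 turned to -0.56 against BY4741 at 30 °C. The cause was not tested.

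The reach difference of 0.11 became 1.24 over all 4 orientations, -0.23 at 1000 to 2000 bp and 0.0013 with 200 to 500 bp as the near range. Leaving out a BY4741 column gave 0.10 to 0.12, and for the first ladder peak -15 to -14 bp. Relative to all NDRs, list medians moved by more than their 30 °C SD against the mean of the other alleles for other remodellers (0.16), glycolysis (0.16), stress-induced (-0.091) and mating genes (-0.030). With start codons up to 300 bp they did so for glycolysis (0.29), stress-induced (-0.17), cell wall (-0.38) and mating genes (0.012).

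The 1118 genes with a higher compaction score became 330 among the well-covered genes, 272 at a threshold of 1, 587 by centred log2 long over short and 616 by centred score (21, 31, 347 and 435 lower). By log2 long over short, list medians moved by more than 0.25 for histone genes (-0.22) and glycolysis (-0.018). YRF1-2, YRF1-5, TEL12R-YP1 and YRF1-3 turned to -0.065, -0.12, -0.098 and -0.058. The cause was not tested.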
